A study of Oryza sativa with 4 samples.

Results

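The transcripts described here are 8782 grain transcripts of rice that the study's authors listed as absent from the gene annotation, each with a chromosomal span, its best protein hit and an FPKM level (sequenced fragments scaled to transcript length and library size). They are all rows of the deposited tables for Sharbati grain, with 4345 transcripts, and Lalat grain, with 4437. The 4 libraries of the study listed 15351 such transcripts, the other 1420 in Sharbati root and 5149 in Lalat root. Identifiers were given by each assembly separately, so transcripts of the cultivars were compared only by where they lie on the genome.

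Sharbati and Lalat are tropical indica cultivars that differ in grain iron, given in the labels as 24.88 ppm for Sharbati and 7.80 ppm for Lalat. Plants of both were grown to maturity in pots of soil and farmyard manure in a net house, with no treatment, and whole developing grains were taken 15 days after panicle emergence, in the middle of grain filling. The number of plants behind a library is not stated. Each group is 1 poly(A) paired-end library, so no difference below has a replicate check and no test was made. Read totals were not used here and the depth behind each value is unknown. In tissue of mixed cell types, fewer cells of a type and less RNA per cell cannot be told apart.

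Reads can be assembled into transcript models along the genome and compared with the annotated genes. A model that departs from the annotation may be a further splice form of a known gene, a different start or polyadenylation site, a piece of a longer transcript, or a gene not yet described. In rice endosperm at mid filling the main products are starch, laid down in amyloplasts, and storage proteins such as glutelins and prolamins. Iron moves into the grain chelated to nicotianamine and is carried by transporters such as those of the YSL family. No sequence, strand or exon structure is held in the tables, so none is shown, and sense could not be separated from antisense. The sources used here do not name the genome build, and positions are those of the deposited tables.

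Nearly all of these transcripts lay on genes that the annotation already holds. A listed annotated gene was overlapped by 4340 of 4345 transcripts in Sharbati grain (99.9%) and by 4434 of 4437 in Lalat grain (99.9%). Annotated genes covered at least 50% of the span of 95.1% of the Sharbati and 95.2% of the Lalat transcripts. The members are therefore called unannotated transcripts here, not unannotated genes. Where protein hit and gene description both name a protein, they shared a word of at least 4 letters in 59.5% of 3493 Sharbati and 59.1% of 3618 Lalat transcripts. The best hit is a name by similarity, with an E-value of at most 1e-05 in both grain tables, and it is used here only as a name.

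Their ends divided them into classes of similar size in the 2 libraries. An end is called annotated here only where it lies at the outer start or end of an annotated gene. Ends of shorter annotated transcripts within a gene were not compared. In Sharbati grain, 661 transcripts (15.2%) started and ended exactly where an annotated gene does, and in Lalat grain 735 (16.6%). A further 1034 Sharbati and 1027 Lalat transcripts kept 1 annotated end and stopped inside the gene at the other. Transcripts that kept 1 end and ran beyond the other numbered 850 and 953, by a median of 139 and 122 bases. Those with neither end annotated that ran beyond the gene numbered 1105 and 1052. Another 450 (10.4%) and 433 (9.76%) lay wholly inside a gene with neither end annotated, and these had the highest median level of the classes, at 5.75 FPKM in Sharbati and 5.15 FPKM in Lalat. Transcripts with both ends annotated had the lowest, at 0.264 and 0.427 FPKM. In the root tables, transcripts with both ends annotated made up 35.7% of the Sharbati and 22.1% of the Lalat list.

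**Figure D1:**
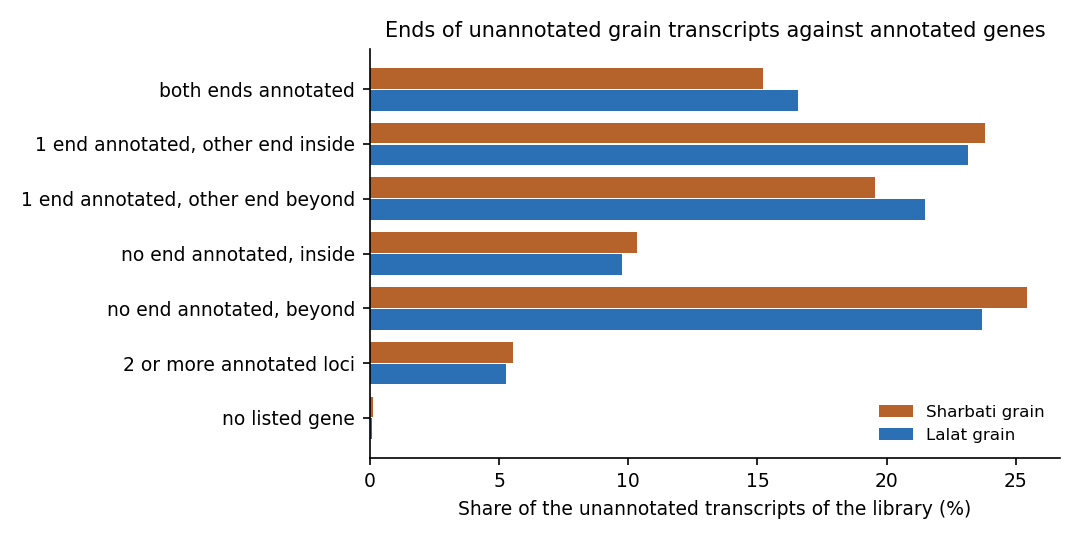
Share of the unannotated transcripts of each grain library (horizontal axis, %) by how their ends lie against the annotated gene they overlap (vertical axis), with orange bars for Sharbati and blue bars for Lalat. The classes have similar shares in both libraries, and transcripts with no listed gene number 5 in Sharbati and 3 in Lalat.

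Some transcripts joined several genes. In Sharbati 240 transcripts (5.52%) and in Lalat 234 (5.27%) overlapped 2 or more separate annotated loci, up to 18 in Sharbati and 9 in Lalat. The median span was 4324 bases in Sharbati and 4209 in Lalat, but 51 and 50 transcripts were longer than 20000 bases. Of these long transcripts, 38 in Sharbati and 39 in Lalat overlapped more than 1 gene. The first and the last overlapped gene were different and both had an informative description in 23 in Sharbati and 20 in Lalat, and the 2 descriptions were the same in 13 and 12 of them. One such transcript, with a hit to 60S ribosomal protein L35a-2, ran over chr5:27640670-27696474 at 80.4 FPKM in Sharbati and began and ended on 2 annotated genes for L35a-3, LOC_Os05g48220 and LOC_Os05g48310. A dehydrin transcript over 105250 bases of chromosome 11 in Sharbati, one for 60S ribosomal protein L10a-3 on chromosome 8 in both libraries and one for 40S ribosomal protein S18 on chromosome 7 in both likewise ended on genes with the same description. Reads of such paired copies may be shared between them, so the levels of these transcripts are uncertain.

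The unannotated transcripts were mostly of low level. The median level was 0.775 FPKM for Sharbati and 0.964 FPKM for Lalat, with ranges from 0.0251 to 4439 and from 0.039 to 9397. At least 1 FPKM was reached by 43.8% and 49.0%, and at least 100 FPKM by 62 and 61 transcripts. The 10 highest held 30.1% of the summed FPKM in Sharbati and 41.1% in Lalat. Over annotated genes listed in the same libraries, the medians were 0.638 and 1.18 FPKM. The level of a transcript followed that of its own gene in its own library more closely than in the others: Spearman's rho was 0.80 for the Sharbati table against Sharbati grain (n = 4314) and 0.69 against Lalat grain (n = 4289). For the Lalat table it was 0.73 against Lalat grain (n = 4422) and 0.67 against Sharbati grain (n = 4340), and against the root libraries rho lay between 0.38 and 0.44. Both values of a pair come from the same reads, and these correlations across transcripts are descriptive. The endosperm markers GluD1, SSA1, Wx and RPBF stood between 381 and 42860 FPKM in the grain libraries, and the root markers Lsi1 and AMT1;1 at or below 0.49 FPKM.

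The highest transcripts in each library belonged to starch synthesis. In Sharbati grain a transcript with a hit to 1,4-alpha-glucan-branching enzyme, which introduces the branch points of amylopectin, reached 4439 FPKM at chr6:30898267-30899308. It spans 1042 bases inside the branching enzyme gene LOC_Os06g51084 (chr6:30897376-30905815), whose own level was 3229 FPKM in Sharbati and 2128 in Lalat. In Lalat grain a transcript with a hit to granule-bound starch synthase 1, the amylose-forming enzyme of the Waxy gene, reached 9397 FPKM at chr6:1769500-1770666. It lies at one end of LOC_Os06g04200 (chr6:1765622-1770656), whose own level was 2905 in Sharbati and 8276 in Lalat. Neither transcript has an overlapping entry in the other cultivar's table.

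Next in rank came a glycine-rich RNA-binding protein transcript inside LOC_Os12g43600, listed at 2719 FPKM in Sharbati (chr12:27060434-27060844) and 2956 in Lalat (chr12:27060397-27060845). It was close in both, as was its gene, at 3730 and 4792 FPKM. A transcript for stress-associated endoplasmic reticulum protein 2 was also close, at 386 and 396 FPKM on chromosome 12, above the 74.4 and 65.3 FPKM of the gene it overlaps, LOC_Os12g32950. Early nodulin-93 on chromosome 6 stood at 659 in Sharbati and 279 in Lalat, and its gene LOC_Os06g04930 at 741 and 615. A cation transport regulator-like protein 2 transcript on chromosome 2 stood at 232 in Sharbati and 848 in Lalat, and its gene LOC_Os02g26700 at 429 and 2015. An alpha-glucosidase transcript of chromosome 6 stood at 347 FPKM in Sharbati and 2 such transcripts at 958 and 317 in Lalat, while the gene LOC_Os06g46284 stood at 1020 and 933. These transcripts, with spans up to 58318 bases in Sharbati and 59149 in Lalat, end on a second gene of glycosyl hydrolase family 31.

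Slightly more than 1 locus in 2 of either cultivar was found in the other. Overlapping transcripts of a library were merged into 3540 loci in Sharbati and 3663 in Lalat. Of these, 1924 in Sharbati (54.4%) and 1936 in Lalat (52.9%) overlapped a locus of the other cultivar by at least 1 base. When 80% of both loci had to overlap, 38.4% and 37.1% remained paired. Spans identical at both ends numbered 174. Loci joined over both libraries numbered 5261, of which 1918 held transcripts of both, 1616 of Sharbati only and 1727 of Lalat only. Of the 1918, 91.6% had a common protein hit and 99.1% a common annotated gene.

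The share of loci found again was highest from 100 to 500 FPKM in both libraries. Between 0.1 and 1 FPKM, 47.1% of Sharbati loci and 39.7% of Lalat loci had an overlapping locus in the other library. From 1 to 100 FPKM the share lay between 61.0% and 62.3% in Sharbati and between 61.2% and 65.4% in Lalat. Between 100 and 500 FPKM it was 72.7% of 55 and 76.9% of 52. At 500 FPKM or more it was 2 of 5 and 5 of 8. Loci listed in 1 library only had median levels of 0.715 FPKM (Sharbati) and 0.844 FPKM (Lalat), against 2.28 FPKM for the higher value of a locus in both. Genes under a locus of 1 cultivar were mostly listed in the other as well. Of 1649 genes that held a transcript in Sharbati only, 97.7% were listed above 0 in both grain libraries, and of 1763 that held one in Lalat only, 96.2%. For genes with transcripts in both the share was 99.3%, and for genes with none it was 72.3%. Genes with none were lower in level, at medians of 0.214 FPKM in Sharbati and 0.358 in Lalat. In the Sharbati-only and Lalat-only groups the median log2 ratio of the gene, Sharbati over Lalat, was -0.34 and -0.45. It was -0.25 for genes with transcripts in both and -0.36 for genes with none.

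**Figure D2:**
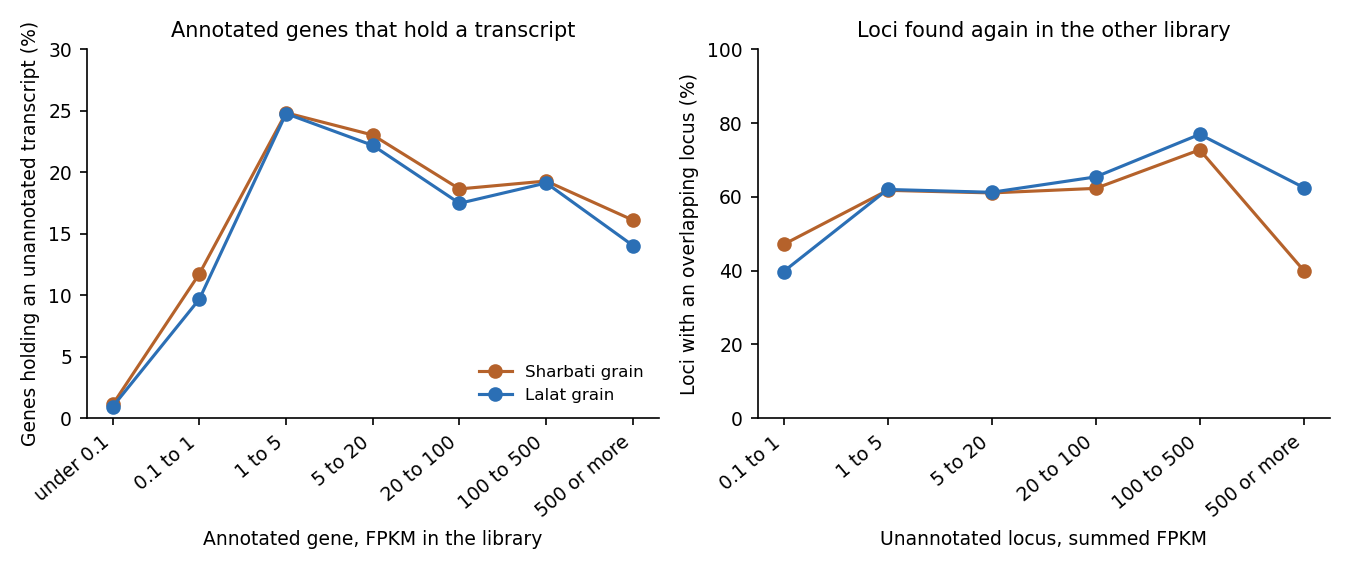
Left, share of annotated genes that hold an unannotated transcript (vertical axis, %) by the FPKM of the gene in the same library (horizontal axis, 7 classes). Right, share of unannotated loci with an overlapping locus in the other grain library (vertical axis, %) by summed FPKM of the locus (6 classes). Orange is Sharbati and blue is Lalat. The share of genes is highest at 1 to 5 FPKM, 24.8% in both libraries, and the share of loci found again is highest at 100 to 500 FPKM.

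High loci listed in 1 cultivar lay on genes that were listed in both. In Sharbati these were, after the branching enzyme, the aspartic proteinase oryzasin-1 at 688 FPKM (gene 973 in Sharbati and 2582 in Lalat), a gamma-interferon-inducible lysosomal thiol reductase, summed over 2 transcripts, at 562 (gene 596 and 2397) and formate-tetrahydrofolate ligase at 351 (gene 302 and 305). Thioredoxin-like 1-1 stood at 307 FPKM on a gene at 705 and 806, and ethylene-responsive transcription factor 1 at 187 on a gene at 367 and 355. In Lalat they were, after granule-bound starch synthase, protein disulfide isomerase-like 1-4, also summed over 2 transcripts, at 637 FPKM (gene 31.4 in Sharbati and 234 in Lalat), aquaporin PIP2-1 at 524 (gene 1294 and 642) and a polyubiquitin at 454 (gene 1266 and 1033). Of these last 3 genes, that of the disulfide isomerase, an enzyme that forms disulfide bonds in secretory proteins, was the lower in Sharbati and the others were the higher there. No fold is given for the transcripts, because a transcript missing from a table has no value there.

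In loci present in both libraries, more stood lower than higher in Sharbati, as among annotated genes, and this order turned with scaling. Of 1434 joined loci with at least 1 FPKM in 1 library, 160 (11.2%) were 2-fold or more higher in Sharbati and 271 (18.9%) were 2-fold or more lower, on the scale of log2(FPKM + 1). Among 13417 annotated grain genes under the same filter, 6.31% were higher and 17.4% lower. The median log2 ratio of Sharbati over Lalat was -0.29 for the loci and -0.35 for the annotated genes. The tables were not normalized together. After scaling by the median ratio of the annotated genes, 255 loci were higher and 147 lower, and the median became 0.06. The share of higher loci among those apart thus moved from 37.1% to 63.4%. Counts of annotated genes after the same scaling are not given, so the scaled counts have no background beside them.

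**Figure D3:**
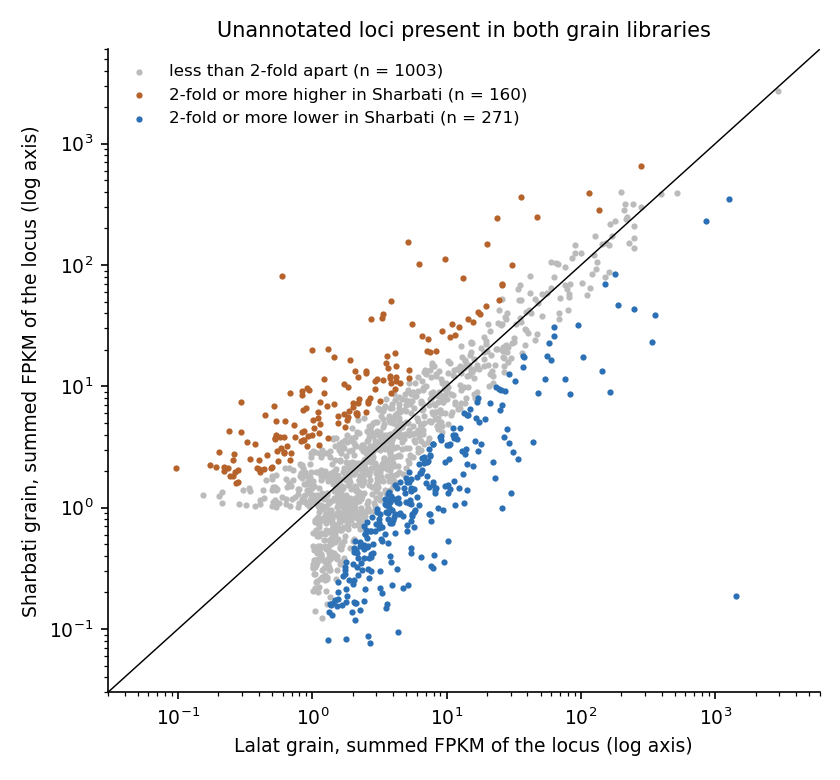
Summed FPKM of each of the 1434 unannotated loci present in both grain libraries with at least 1 FPKM in 1 of them, in Lalat (horizontal, log axis) and Sharbati (vertical, log axis). Orange points are the 160 loci at least 2-fold higher in Sharbati, blue points the 271 at least 2-fold lower, grey points the rest, and the line marks equal levels. The single blue point far to the lower right joins transcripts with unrelated protein hits on chromosome 11.

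For most loci that stood apart, the annotated gene beneath them was within 2-fold. Of the 160 loci higher in Sharbati, the annotated gene was 2-fold or more higher in 38 (23.8%) and within 2-fold in 120 (75%). Of the 271 lower loci, the gene was 2-fold or more lower in 86 (31.7%) and within 2-fold in 180 (66.4%). Over 1433 loci with a listed gene, Spearman's rho between both ratios was 0.55, a description across loci whose values come from the same reads. Within the loci less than 2-fold apart, 893 genes (89.1%) were also within 2-fold. Where a long span covers several genes, the gene set beside a locus may not be that of its protein hit. The dehydrin locus of chromosome 11 (20.1 FPKM in Sharbati and 0.992 in Lalat) was set on the transposon-described gene LOC_Os11g26680, at 0 and 0.0302 FPKM. The dehydrin gene LOC_Os11g26570 in the same span stood at 37.1 and 7.40. How many loci are affected was not counted.

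Metallothionein-like protein 2C, a small cysteine-rich metal-binding protein, was listed at 23.0 FPKM for Sharbati and 337 for Lalat at chr5:605452-606780. Its gene LOC_Os05g02070 stood at 55.8 and 503, so transcript and gene differed in the same direction. The same held for IN2-1 homolog B on chromosome 3, at 3.48 and 44.1 FPKM with its gene LOC_Os03g17470 at 3.91 and 59.1. Gamma-glutamyl hydrolase, which shortens folate side chains, stood at 38.4 and 359 on chromosome 5, with its gene LOC_Os05g44130 at 55.9 and 286. These were among the 10 lowest ratios of Sharbati over Lalat among loci with at least 5 FPKM in 1 library.

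Other low ratios lay on genes of similar level in both libraries. A ubiquitin-like protein 5 transcript on chromosome 2 was listed at 1.33 FPKM for Sharbati and 30.2 for Lalat, on LOC_Os02g41820 at 24.7 in both. Its entry was longer in Sharbati (chr2:25145367-25150430) than in Lalat (chr2:25146763-25148945). Chloroplastic phosphoglucomutase, which links glucose phosphates to starch, stood at 13.5 and 143 FPKM on chromosome 10, on LOC_Os10g11140 at 81.1 and 74.2. The Sharbati span there was chr10:6167246-6172283 and the Lalat span chr10:6167228-6168018, so the entries differ in extent. A KH-domain RNA-binding transcript with a hit to Nova-1 stood at 2.50 and 34.0 FPKM on chromosome 2, on LOC_Os02g57640 at 34.0 and 39.5, again with a shorter span in Lalat (chr2:35301484-35302136) than in Sharbati (chr2:35297556-35302134).

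Among the 10 highest ratios, a glyoxysomal malate dehydrogenase transcript was listed at 103 FPKM for Sharbati and 6.23 for Lalat, on LOC_Os12g43630 at 107 and 52.3. Cytosolic phosphoglycerate kinase, a glycolytic enzyme, stood at 50.1 and 3.85 on chromosome 6, on LOC_Os06g45710 at 76.8 and 40.4. For both, the Sharbati entry was the shorter, at chr12:27094819-27096040 and chr6:27676578-27677865, against chr12:27094783-27099351 and chr6:27676318-27679785 in Lalat. Stromal heat shock protein 70, a plastid chaperone, stood at 362 and 35.9 FPKM, on LOC_Os12g14070 at 1333 and 456. A thylakoid ADP,ATP carrier stood at 242 and 23.8, on LOC_Os01g16040 at 418 and 194. An F-box/LRR-repeat locus on chromosome 6 stood at 35.7 and 2.73, on LOC_Os06g06600 at 31.9 and 6.03.

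Several extremes joined different transcripts through a long span. The lowest log2 ratio, -10.23, set a pentatricopeptide repeat transcript of 0.187 FPKM in Sharbati beside a translationally controlled tumor protein transcript of 1429 FPKM in Lalat at chr11:26511063-26540447, which spans both genes. The tumor protein gene itself, LOC_Os11g43900, had 159.5 FPKM in Sharbati and 1875 in Lalat. The highest, 5.68, set the L35a-2 transcript of 80.4 FPKM beside a T-complex protein 1 subunit beta transcript of 0.59. A polyubiquitin in Sharbati (154 FPKM) was likewise set beside a solute carrier family 35 member in Lalat (5.13 FPKM) on chromosome 6. With only loci that share a protein hit, 138 were higher and 249 lower in Sharbati. That count still holds the chromosome 11 locus, since the Lalat table also lists a pentatricopeptide repeat transcript there.

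**Figure D4:**
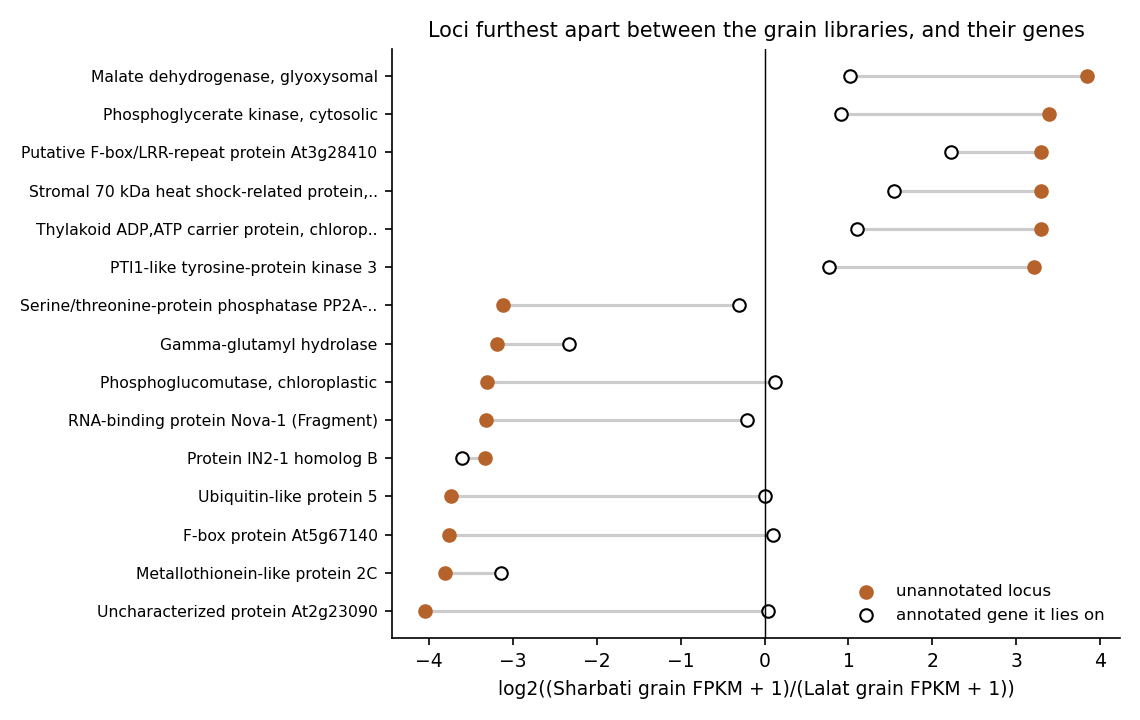
log2 ratio of Sharbati over Lalat FPKM, each with 1 added (horizontal axis), for the loci among the 10 highest and 10 lowest ratios whose spans do not exceed 20000 bases, named by the protein hit of the higher library (vertical axis). Filled points are the unannotated loci and open points the annotated genes they lie on. For metallothionein-like protein 2C and IN2-1 homolog B both points lie far to the left, and for ubiquitin-like protein 5 and phosphoglucomutase the gene lies near 0.

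Genes of starch synthesis were among those that held unannotated transcripts. Of 28339 annotated genes listed in grain, 18.8% held one in either library, and of 13683 at 1 FPKM or more 31.3%. Of 17 starch synthesis genes at that level, set by words in the gene description, 12 (70.6%) held one. They were 3 in both libraries, 6 in Sharbati only and 3 in Lalat only. The 3 in both include LOC_Os05g37450, described by a starch-binding domain. The genes LOC_Os08g40930 (isoamylase 1) and LOC_Os02g56320 (glycogen synthase 1) held transcripts in both libraries but are described in other words and not counted. Over all genes that held one at that level, 1638 did so in both, 1301 in Sharbati only and 1338 in Lalat only. The starch genes were long and high, with a median span of 7750 bases and a median level of 179 FPKM in the higher library, against 3640 bases and 6.27 FPKM over all genes at 1 FPKM or more. Among genes at 1 FPKM or more, the share that held a transcript was 2.49% below 1000 bases of span and 52.7% at 8000 bases or more. It was 28.9% for genes with 1 annotated transcript and 36.2% for those with 2 or more. Within each library, 24.8% of genes at 1 to 5 FPKM held a transcript of that library. At 100 to 500 FPKM, 19.3% did in Sharbati and 19.1% in Lalat. What part span and level have in the starch share was not tested.

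The first step of starch synthesis, ADP-glucose pyrophosphorylase, had transcripts listed in both cultivars, on different genes. In Sharbati its large subunit was listed at 329 FPKM on LOC_Os01g44220 (gene 1410 in Sharbati and 1081 in Lalat) and at 10.8 on LOC_Os03g52460 (gene 82.3 and 67.6). In Lalat a large subunit was listed at 19.8 and 19.1 FPKM, as 2 transcripts, on LOC_Os05g50380 (gene 23.9 and 54.8), and the small subunit at 242 on LOC_Os08g25734 (gene 1444 and 881). Branching enzyme 2 was listed in Sharbati alone, at 294 FPKM on LOC_Os02g32660 (gene 1507 and 1258). All of these genes were listed above 1 FPKM in both cultivars, while the transcripts were each listed in 1.

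Soluble starch synthase 3 and isoamylase 1 were listed in both. The starch synthase 3 locus on chromosome 8 was at 175 FPKM in Sharbati and 170 in Lalat, where 128 came from the starch synthase transcript and the rest from an autophagy-related protein 8C transcript in the same locus. Its gene LOC_Os08g09230 stood at 227 and 112. Isoamylase 1, the debranching enzyme that trims amylopectin, had 2 transcripts summing to 138 FPKM in Sharbati (chr8:25893243-25900750) and 1 of 248 in Lalat (chr8:25893182-25894959). Its gene LOC_Os08g40930 stood at 214 and 218. A starch synthase 2-1 locus on chromosome 10 stood at 4.20 and 9.17, and a 4-alpha-glucanotransferase DPE2 locus at 0.241 and 0.121. Of 7 starch loci in both libraries, 4 were higher in Sharbati and 3 in Lalat at any fold, on either scale. These counts include an alpha-amylase and a ribonuclease E hit on genes described by a starch-binding domain.

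Few storage protein genes held unannotated transcripts. Of 100 such genes at 1 FPKM or more, a class that includes the lipid transfer and protease inhibitor family, 5 (5.0%) held one. None of 31 glutelin and prolamin genes did, and their median level was 12212 FPKM. Their median span was 730 bases, and of all genes below 1000 bases 2.49% held one. Of all genes at 500 FPKM or more in a library, 16.1% in Sharbati and 14.0% in Lalat held a transcript of that library. What part span and level have in this count was not tested. The hits on genes of that family were in part to other proteins, such as calcium-transporting ATPase 8 on chromosome 2 in both libraries and NEDD8 ultimate buster 1 on chromosome 4 in Sharbati. Globulin-1 S allele, a vicilin-type storage protein named in maize, was the storage protein hit in both libraries, at 8.39 FPKM in Sharbati and 5.89 in Lalat on LOC_Os03g57960 (gene 48.2 and 44.4). A lipid transfer protein 2 transcript was listed only in Lalat, at 3.36 FPKM on LOC_Os03g59380 (gene 0.221 and 3.23). A lipid transfer protein 1 transcript was listed only in Sharbati, at 2.48 FPKM on LOC_Os11g02379 (gene 30.9 and 0.470).

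Of genes described by words for iron and other metals, 14 of 64 at 1 FPKM or more (21.9%) held a transcript, and 8 of them did in both libraries. Of all genes at that level, 31.3% held one. The metal count goes by gene description alone and misses some metal genes that held transcripts. The gene under YSL2 is described as a transposon protein and that under metallothionein-like protein 2C as an expressed protein. By hit or gene description, 18 loci of this group were present in both. At any fold, 4 were higher in Sharbati and 14 in Lalat, or 6 and 12 after scaling by the median of annotated genes. These counts include loci below 1 FPKM in both libraries, and the same count over all joined loci is not given. All joined loci at 1 FPKM or more also leaned to Lalat before scaling, with a median log2 ratio of -0.29. By protein hit alone, 11 were at 1 FPKM or more, of which 1 was 2-fold or more higher and 5 lower in Sharbati, with the same counts after scaling. Over all joined loci at that level, 11.2% were 2-fold or more higher and 18.9% lower, or 17.8% and 10.3% after scaling. One of the 5 is the chromosome 6 locus whose level comes from alpha-glucosidase, joined to a short transcript for metal transporter Nramp3 of 0.5095 FPKM in Sharbati and 2.01 in Lalat. The 4 others included heavy metal-associated isoprenylated plant protein 26 on chromosome 12, at 1.49 FPKM in Sharbati and 7.42 in Lalat, with its gene LOC_Os12g05040 at 21.7 and 34.5.

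The locus 2-fold or more higher in Sharbati was YSL2, the iron- and manganese-nicotianamine transporter of phloem and developing grain. Its transcripts stood at 1.64 FPKM in Sharbati (chr2:26170938-26174970) and 0.281 in Lalat (chr2:26170370-26174970), and its gene LOC_Os02g43370 at 10.8 and 3.17. YSL13 and YSL9 stood the other way, at 0.111 and 0.791 FPKM and at 0.206 and 1.25 FPKM, with genes at 0.533 and 1.42 and at 0.306 and 1.28. All of these unannotated loci stood below 2 FPKM. Among enzymes, ferrochelatase-2, which inserts iron into protoporphyrin to form heme, was at 0.218 FPKM in the Sharbati and 4.71 in the Lalat table, on LOC_Os05g29760 at 1.78 and 6.43. Nicotianamine aminotransferase A, named for the phytosiderophore enzyme of barley, stood at 0.766 and 1.40 on chromosome 6. The gene beneath it, LOC_Os06g23684, is described as a tyrosine aminotransferase and stood at 3.14 and 5.61. Ferric reduction oxidase 7 stood at 0.245 and 0.441 on LOC_Os04g36720, whose gene value was 0.535 and 2.18.

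Besides 2C, 2 further metallothionein loci were present in both libraries. The 3A locus was at 36.1 FPKM in Sharbati, against 69.1 in Lalat, on LOC_Os01g10400 (gene 40.1 and 145), and the 1B locus at 7.22 and 21.2 on LOC_Os03g17870 (gene 18.6 and 37.5). All 3 were lower in Sharbati, also after scaling, when their log2 ratios were -3.46 for 2C, -0.57 for 3A and -1.08 for 1B. Copper chaperone ATOX1 on chromosome 8 stood at 32.1 and 25.2 FPKM, and its gene LOC_Os08g10480 at 53.6 and 54.2. A CDGSH iron-sulfur domain transcript was listed only in Lalat, at 16.0 FPKM on LOC_Os07g28400 (gene 11.6 and 23.8).

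Among the larger groups, the shares were highest for splicing factors and kinases. Unannotated transcripts were found in 89 of 181 splicing factor genes (49.2%), 272 of 556 protein kinase genes (48.9%), 79 of 172 genes of ubiquitin and the proteasome (45.9%) and 136 of 345 transcription factor genes (39.4%), beside 31.3% of all genes at 1 FPKM or more. Ribosomal protein genes (80 of 288, 27.8%), chaperones (48 of 156, 30.8%), F-box genes (73 of 249, 29.3%) and genes described as transposon proteins (109 of 351, 31.1%) lay close to that share. The median span was 4488 bases for splicing factor genes, 4745 for kinases and 2240 for ribosomal protein genes, and the part of span in these shares was not tested. The levels of the transcripts had another order, with a median of 25.9 FPKM in Sharbati and 23.4 in Lalat for ribosomal proteins, against 0.784 and 0.822 for kinases.

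**Figure D5:**
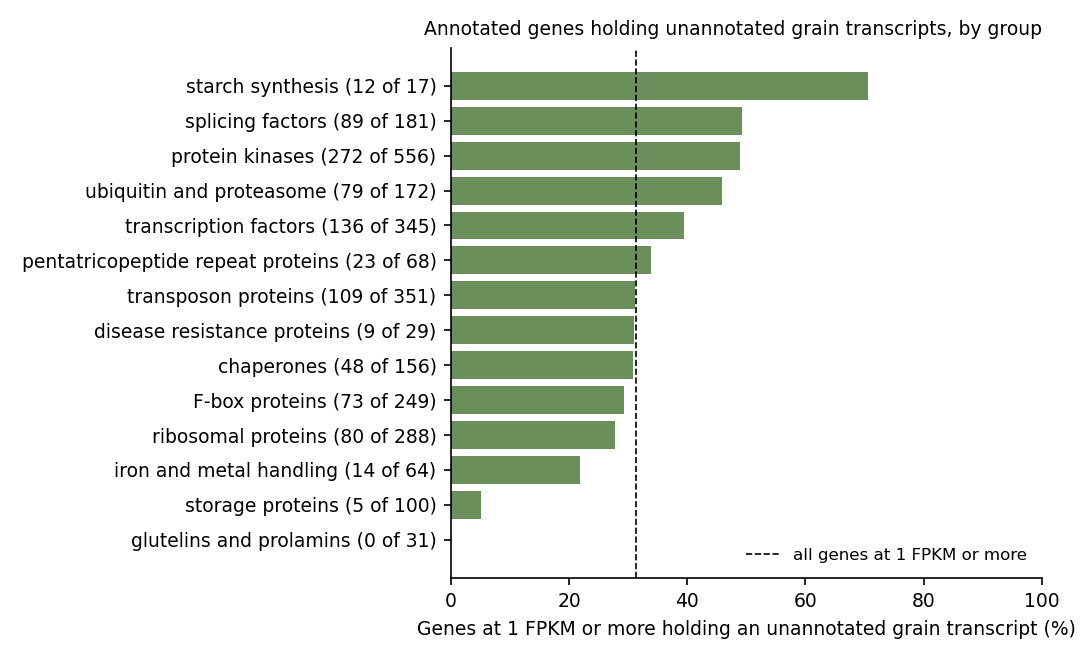
Share of annotated genes at 1 FPKM or more in either grain library that hold an unannotated grain transcript (horizontal axis, %), by group (vertical axis), with the number of such genes and of all genes of the group in brackets. Groups of genes are set by words in the gene description alone. The dashed line marks the 31.3% of all genes at that level. Starch synthesis stands highest at 70.6%, and glutelins and prolamins at 0.

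Many grain loci had a counterpart among the root transcripts, those of both cultivars in the largest share. Unannotated root transcripts, from either root library, overlapped 1802 of 3540 Sharbati grain loci (50.9%) and 1904 of 3663 Lalat grain loci (52.0%). Of joined loci in both grain libraries, 1180 (61.5%) had a root locus, of Sharbati-only loci 621 (38.4%) and of Lalat-only loci 720 (41.7%). Over all joined loci the share was 47.9%. Loci in both were also higher in level, at a median of 2.28 FPKM in the higher library, against 0.715 and 0.844 FPKM. What part level and span have in these shares was not tested. Most root matches came from the Lalat table, which is the longer, with 46.3% of Sharbati and 47.9% of Lalat grain loci, against 13.2% and 12.3% for the Sharbati root table. In the reverse direction, 36.8% of 4951 root loci overlapped a Sharbati and 38.7% a Lalat grain locus. The lists differ in length and in level, with a median of 4.43 FPKM in Lalat root and 1.55 in Sharbati root, and their levels were not compared.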

How the data were processed

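Poly(A) RNA of developing grain and root was sequenced as paired-end libraries, 1 per cultivar and organ. Per the submitters' processing notes, the tools were Cufflinks 1.3.0, Cuffdiff, TopHat 1.3.3 and Bowtie 0.12.9. For the genome build, the protein search and the rule that made a transcript unannotated, nothing is given in the sources used here. The FPKM values, spans and E-values (score) were used as deposited by the authors, and unannotated transcripts of each library were listed separately, not normalized together. A repeated header line at the foot of the Sharbati grain table was dropped, and 232 rows of the Sharbati root table exceed the E-value of 1e-05 that the other tables keep to. Starts of annotated genes are counted from 0 in the deposited tables and were moved by 1 base. Where genes share a span (1419 of 31453), the one with the higher grain FPKM was taken, a rule set after seeing the data.

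Overlapping transcripts were merged into loci, and FPKM was summed within a locus. Ratios were log2((Sharbati FPKM + 1)/(Lalat FPKM + 1)), counted as apart at 2-fold or more. Overlap counting was tested on simulated data of well separated loci, which did not include long spans that join neighbouring loci. Tables were handled with pandas 2.3.3 in Python 3.11.15, and figures drawn with matplotlib 3.10.9. Named were the 10 highest transcripts of each library, the 10 highest and 10 lowest ratios among loci at 5 FPKM or more, the 10 highest loci of 1 library only, the 5 longest, and members of the starch, storage and metal groups, of which the text gives a selection. Groups were defined by words in gene descriptions and protein hits. The members and lists were chosen with earlier results of these data known, and the glutelin and prolamin group was added after seeing the data. Alternatives covered pseudocounts, filters, scaling, fold threshold, overlap and span.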

Additional observations from a re-analysis of the deposited data

How the results depend on the processing

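Of 45 alternative values, 30 stayed within the limits set for the same result, 14 moved and 1 reversed. Some of the 30 could not have moved and are no check of the result. A length filter of 200 bases removed no transcript, as the shortest spanned 359 bases in Sharbati and 449 in Lalat. Without the FPKM filter the counts of 160 higher and 271 lower loci had to stay. A locus below 1 FPKM in both libraries cannot reach 2-fold with 1 added. A 4-fold threshold cannot change the median of -0.29. Restricting transcripts to at least 1 FPKM gave 889 of 1690 Sharbati loci (52.6%) and 894 of 1966 Lalat loci (45.5%) with a partner, in place of 1924 of 3540 (54.4%) and 1936 of 3663 (52.9%). For the ratio, with 160 loci higher and 271 lower in Sharbati and a median of -0.29, a pseudocount of 0.1 gave 445 lower, and a pseudocount of 5 gave 56 higher, 75 lower and a median of -0.12. Without a filter the median was -0.17, and at 5 FPKM or more it was -0.17 with 103 higher and 144 lower. A 4-fold threshold left 37 higher and 52 lower. Scaling by the median ratio of annotated genes gave 255 higher, 147 lower and a reversed median of 0.0611. It moves every ratio by the same amount, and the loci had a less negative median (-0.29) than the annotated genes (-0.35). The cause of the other shifts was not tested. Alternatives that changed neither count by over 1.5 times include 3 chosen after seeing the data: spans of 20000 bases or less, a common protein hit, and root rows with an E-value of at most 1e-05. No paired analysis was possible because each group has 1 library. The unknown depth limits how firmly the absence of a transcript from a table can be read.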

Other observations

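Only 8 grain transcripts overlapped no listed annotated gene. One locus of this kind was present in both cultivars, with a hit to DNA replication licensing factor mcm5, a subunit of the helicase that opens DNA for replication. It lies at chr11:11871361-11876570 in Sharbati, with 2 transcripts of 0.499 and 0.572 FPKM, and at chr11:11871346-11877006 in Lalat, with 1 of 1.62 FPKM. The hits were weak, with E-values of 1e-07 and 3e-08. The others were a serine/threonine-protein kinase At5g01020 hit at chr11:969804-971941 (2.98 FPKM), a DnaJ chaperone hit at chr5:20981266-20986415 (0.44 FPKM) and an ankyrin repeat EMB506 hit at chr10:7537696-7539276 (0.652 FPKM) in Sharbati. In Lalat they were a PASTICCINO 2A hit, an enzyme of very-long-chain fatty acid synthesis, at chr1:2729888-2731559 (2.02 FPKM) and a HIPL1 hit at chr1:43246631-43250710 (0.984 FPKM). Besides mcm5, the EMB506 locus also has an entry in the other grain table.

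Transcripts with hits to disease resistance proteins were low in level, as were the genes of that description. Of 29 such genes at 1 FPKM or more, 9 (31.0%) held a transcript, beside 31.3% of all genes at that level. Their median level in the higher library was 1.33 FPKM, against 6.27 FPKM over all genes at 1 FPKM or more. The transcripts with such hits numbered 23 in Sharbati and 22 in Lalat, at medians of 0.138 and 0.187 FPKM. In both libraries, 1 locus of the group at 1 FPKM or more was present. Pentatricopeptide repeat hits, proteins that edit and process organelle RNA, numbered 69 and 65, at medians of 0.213 and 0.362 FPKM. By gene description, 23 of 68 pentatricopeptide genes at 1 FPKM or more (33.8%) held a transcript. Of 9 such loci in both libraries at 1 FPKM or more, none was 2-fold or more higher in Sharbati and 6 were lower, with a median log2 ratio of -1.08, beside 11.2% higher and 18.9% lower over all joined loci. After scaling by the median ratio of annotated genes, 2 of the 9 were lower and the median was -0.73. One of the 6 is the chromosome 11 locus that also holds the tumor protein transcript. The longest transcript of all, 252331 bases on chromosome 12 in Lalat, had a hit to a Tf2-type retrotransposon protein, overlapped 9 annotated loci and stood at 0.667 FPKM.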
